A study of Mus musculus with 2 samples.

Results

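The canonical histone genes of the mouse, which make the histones H1, H2A, H2B, H3 and H4 that package newly copied DNA, were described in 2 RNA sequencing libraries from skin lymphatic endothelial cells (LECs). The genes were chosen by symbol, as the rows whose name begins with Hist1h, Hist2h, Hist3h or Hist4h, which gave 67 of the 24319 genes listed. Among them Hist3h2bb-ps is annotated as a processed pseudogene. One library was labelled Dot1l knockout and the other wild type. Both were from C57BL/6 skin at embryonic stage E15.5. Dot1l encodes the enzyme that methylates histone H3 in the core of the nucleosome. The knockout is named in the labels as a deletion in endothelium (Dot1lΔEC), while the sources used here give neither the promoter that drove it nor the deleted part. Each library was made from RNA pooled from 2 to 3 biological replicates. The labels also hold a protocol for growing primary dermal LECs, and do not say how the sequenced cells were purified or whether they were cultured. With 1 library per genotype there was no replicate check, and no test or p-value could be had.

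Replication-dependent histone genes lie in clusters of many near-identical copies and are transcribed mainly while DNA is copied, in nuclear bodies that hold the co-activator NPAT. Their mRNAs as a rule end in a conserved stem-loop in place of a poly(A) tail. The stem-loop binding protein SLBP and the U7 small nuclear ribonucleoprotein direct the cut that makes this end, and SLBP then stays with the mRNA through export and translation. Replacement variants such as H3.3, H2A.Z and H1.0 come from single genes outside the clusters, are polyadenylated as a rule and are made through the whole cell cycle and in resting cells. An RNA without a poly(A) tail is kept or lost according to how RNA is selected for sequencing. The sources used here do not say whether these libraries were selected for poly(A) tails or depleted of ribosomal RNA.

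The stem-loop was looked for in the GENCODE M21 transcripts (GRCm38), as the letters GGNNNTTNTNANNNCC on the transcript strand with a perfectly paired stem of 6 base pairs around a loop of 4 bases. It stood after the stop codon, in the 3′ untranslated part, of 46 of the 67 genes. Of the other 21, 18 had models that end under 60 bases past the stop codon, where little room is left for it, and 3 had longer ones. Among all 21877 protein-coding genes, 0.315% had it anywhere in a transcript. The 8 examples that follow show the 16 bases of the stem-loop in capitals, written as DNA and 5′ to 3′, with the bases beside them. They are shown because genes named in the results carry them and because H4 genes differ from the other types in the stem.
Hist1h1c: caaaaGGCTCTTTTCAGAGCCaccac
Hist1h2ad: acaaaGGCTCTTTTCAGAGCCatcca
Hist3h2a: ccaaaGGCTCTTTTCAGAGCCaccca
Hist1h2bk: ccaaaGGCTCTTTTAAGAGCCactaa
Hist1h3b: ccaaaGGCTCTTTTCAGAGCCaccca
Hist1h4d: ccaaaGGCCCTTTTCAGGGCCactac
Hist1h4c: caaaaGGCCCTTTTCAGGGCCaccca
Hist1h4b: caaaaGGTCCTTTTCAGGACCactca
The same 16 letters, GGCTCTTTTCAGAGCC, were in 26 genes: 3 of the 4 H1 genes with a stem-loop, 10 of 11 H2A genes, 8 of 10 H2B genes and 5 of 9 H3 genes. None of the 12 H4 genes with a stem-loop had them. In 7 of those 12 the letters were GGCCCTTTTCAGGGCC, as in Hist1h4d and Hist1h4c, and Hist1h4b carried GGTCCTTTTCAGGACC, found in 2 genes.

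Promoters were taken from RefSeq (GRCm38.p6), which held a window of 250 bases before to 50 bases after the start for 60 of the 67 genes. Searched on both strands, the box CCAAT was in 51 of these 60 windows (85%), against 37.9% of all 27025 promoters of the same length. TATAAA was in 35 (58.3%, against 14.2%). The octamer ATTTGCAT, the site of the factor OCT1 in H2B promoters, was in 13 (21.7%, against 1.75%). The types differed in these letters. CCAAT was in every H1, H2A, H2B and H3 window (6, 17, 15 and 10 of them) but in 3 of 12 H4 windows, and the octamer was in 7 of 17 H2A and 6 of 15 H2B windows and in none of the others. The windows of neighbouring H2A and H2B genes that face away from each other can overlap, as those of Hist1h2ah and Hist1h2bk do. The same motif can then be counted for both genes, so the windows are not all separate. None of the 3 motifs contains another. The windows that follow are those of the H2A and H2B genes with the largest differences and of a pair of H4 genes that differed from each other, with each motif in capitals in either direction (CCAAT also reads ATTGG, and ATTTGCAT reads ATGCAAAT).
Hist1h2ah, chr13:22035594-22035893, minus strand: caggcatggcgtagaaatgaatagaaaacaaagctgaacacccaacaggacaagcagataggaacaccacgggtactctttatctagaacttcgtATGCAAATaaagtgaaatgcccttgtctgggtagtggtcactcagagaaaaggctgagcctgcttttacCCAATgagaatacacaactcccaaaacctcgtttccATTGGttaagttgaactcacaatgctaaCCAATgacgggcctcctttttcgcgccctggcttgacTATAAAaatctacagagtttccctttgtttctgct
Hist2h2bb, chr3:96269450-96269749, plus strand: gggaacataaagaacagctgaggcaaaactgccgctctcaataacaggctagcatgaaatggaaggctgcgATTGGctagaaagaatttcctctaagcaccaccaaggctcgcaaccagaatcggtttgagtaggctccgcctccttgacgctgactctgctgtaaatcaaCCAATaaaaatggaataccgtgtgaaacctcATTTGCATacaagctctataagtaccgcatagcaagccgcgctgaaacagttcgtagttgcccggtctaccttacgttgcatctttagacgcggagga
Hist1h4b, chr13:23756687-23756986, plus strand: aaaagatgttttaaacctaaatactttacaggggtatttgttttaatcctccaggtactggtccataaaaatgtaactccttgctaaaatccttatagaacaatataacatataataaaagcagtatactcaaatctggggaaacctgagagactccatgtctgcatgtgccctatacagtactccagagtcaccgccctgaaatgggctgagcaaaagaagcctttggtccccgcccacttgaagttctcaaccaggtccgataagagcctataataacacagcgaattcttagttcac
Hist1h4d, chr13:23581318-23581617, plus strand: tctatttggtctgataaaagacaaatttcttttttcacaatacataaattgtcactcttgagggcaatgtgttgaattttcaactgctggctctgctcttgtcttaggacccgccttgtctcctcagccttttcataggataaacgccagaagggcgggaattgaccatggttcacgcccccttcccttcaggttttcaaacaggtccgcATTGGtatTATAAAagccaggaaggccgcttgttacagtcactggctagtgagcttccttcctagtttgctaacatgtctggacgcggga
The window of Hist1h2ah held all 3 motifs, that of Hist2h2bb held CCAAT and the octamer, and that of Hist1h4d held CCAAT and TATAAA. None of the 3 was in the window of Hist1h4b, nor in those of Hist1h4h and Hist4h4. A match describes the letters and not a bound site.

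The deposited values are FPKM (fragments per kilobase of transcript per 1000000 fragments), so levels can be compared between genes per length. They summed to 530294 in the library labelled knockout and 415537 in wild type. From the spacing of low values the depth was about 9090000 fragments in the library labelled knockout and 10300000 in wild type, if no further scaling was applied, so that 100 FPKM in a transcript of 400 bases rests on about 182 fragments in the library labelled knockout and 205 in wild type. Dot1l itself was listed at 10.4 FPKM in the library labelled Dot1l knockout and 5.86 FPKM in wild type, a log2 difference of 0.73, so the whole-gene value was not lower where the label says knockout, and every direction given here rests on the labels as they stand. The cell type lists also stood apart. The macrophage markers, all 11 of them higher in the library labelled knockout by 2-fold or more, summed to 3584 FPKM in the library labelled knockout and 55.7 FPKM in wild type. The 8 mast cell markers, all higher by as much, summed to 12933 FPKM in the library labelled knockout and 104 FPKM in wild type. C1qc and Fcer1a, of these lists, were listed at 0 in wild type. All 8 general endothelial markers were at least 2-fold lower (summed 204 FPKM in the library labelled knockout, 1065 in wild type), as were 6 of the 7 lymphatic markers that passed (614 FPKM in the library labelled knockout, 844 in wild type). Lyve1, at 553 FPKM in the library labelled knockout and 526 in wild type, was the exception, and Ccl21a was at 0 FPKM in the library labelled knockout and at 0.538 FPKM in wild type. Other skin cell types were lower in sum too: fibroblasts (7 of 8 markers at least 2-fold lower; 981 FPKM in the library labelled knockout, 4188 in wild type), pericytes (6 of 6; 25.8 FPKM in the library labelled knockout, 147 in wild type), keratinocytes (4 of 5; 42.5 FPKM in the library labelled knockout, 101 in wild type) and red cells (1 of 3 that passed; 108 FPKM in the library labelled knockout, 308 in wild type). In bulk RNA, fewer cells of a type and less RNA per cell cannot be told apart. Of all FPKM, small RNAs took 15.0% in the library labelled knockout and 2.47% in wild type. Every difference that follows was measured between libraries that differ in these ways too, and the part of these differences in the histone values was not tested.

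Histone cluster genes were lower in the library labelled knockout as a group. Their summed level was 6824 FPKM in the library labelled knockout and 18526 FPKM in wild type, which is 2.71-fold lower. They made up 1.29% of all FPKM in the library labelled knockout and 4.46% in wild type. At least 1 FPKM in at least 1 library was reached by 60 of the 67 genes. On the scale log2(FPKM + 1), 39 of these lay lower by 2-fold or more in the library labelled knockout, 0 were that far higher and 21 lay within 2-fold. Among all 13296 genes that passed the same minimum, 15.49% lay 2-fold lower or more and 16.78% lay 2-fold higher or more. The median log2 difference of the 60 genes was -1.50, against 0.00 for all genes. On either side of 0, 53 genes lay below and 7 above. The set was picked with the values of these libraries known, so these counts describe it and support nothing further. Just inside the minimum lay Hist1h2aa and Hist2h2aa2, whose higher values were 1.27 and 1.53 FPKM. Both reached the minimum in wild type only, as did Hist1h2ap (0.780 FPKM in the library labelled knockout, 5.93 in wild type). Each of these is among the 39 and could not have been counted as higher. Just outside the minimum lay Hist2h2aa1, at 0.568 FPKM in the library labelled knockout and 0.0335 in wild type. The other genes under the minimum were Hist1h2ao, Hist1h2br, Hist1h2ba, Hist2h3c1, Hist2h3c2 and Hist1h4m. Among the 52 genes with at least 10 FPKM in either library, 36 were lower by 2-fold or more and the median was -1.59.

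**Figure D1:**
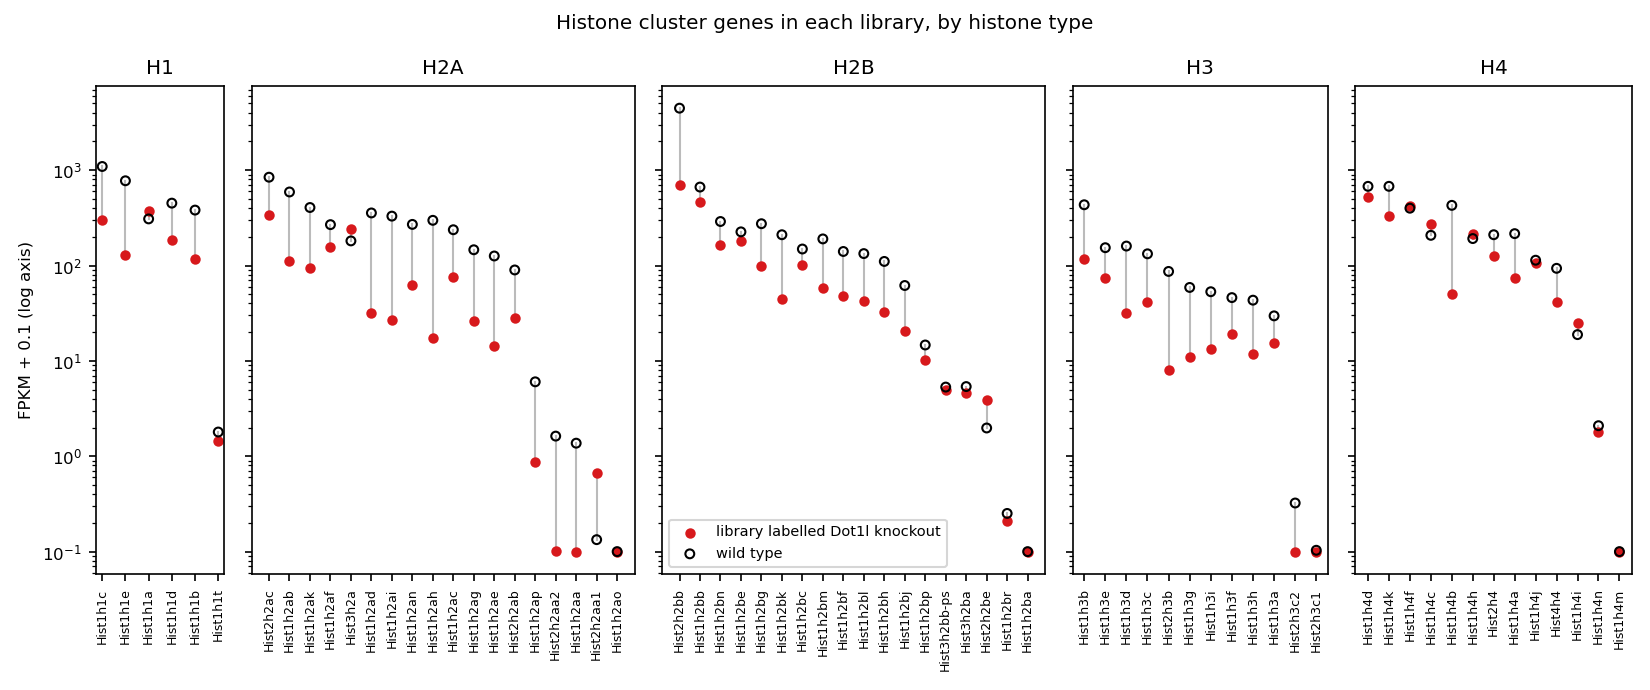
Level of each of the 67 histone cluster genes (FPKM + 0.1, log axis) in the library labelled Dot1l knockout (filled red) and in wild type (open black), 1 panel per histone type, ordered by mean level within the type. Most red points lie below their black partner among H1, H2A, H2B and H3 genes, with Hist2h2bb the highest gene in both libraries, while several H4 points nearly coincide.

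The types did not move alike. H2B was 3.53-fold lower in sum, with 1965 FPKM in the library labelled knockout and 6941 in wild type. H3 was 3.50-fold lower (342 FPKM in the library labelled knockout, 1197 in wild type) and H2A 3.39-fold (1224 FPKM in the library labelled knockout, 4149 in wild type). H1 was 2.72-fold lower, with 1104 FPKM in the library labelled knockout and 3008 in wild type. H4 was 1.48-fold lower, with 2189 FPKM in the library labelled knockout and 3232 in wild type. H4 accordingly had a share of the cluster sum of 32.1% in the library labelled knockout and 17.4% in wild type, while H2B made up 28.8% in the library labelled knockout and 37.5% in wild type. By gene, 14 of the 16 H2A genes that passed and 9 of the 10 H3 genes were at least 2-fold lower. The same was true of 4 of 6 H1 genes, 8 of 16 H2B genes and 4 of 12 H4 genes. The H2A count includes Hist1h2ap, Hist2h2aa2 and Hist1h2aa. These reached the minimum in wild type only, so none of them could be counted as higher. With a pseudocount of 5 the H2A count was 11 of 16. Medians ran from -2.03 for H2A through -1.85 for H3, -1.48 for H1 and -1.14 for H2B to -0.26 for H4.

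**Figure D2:**
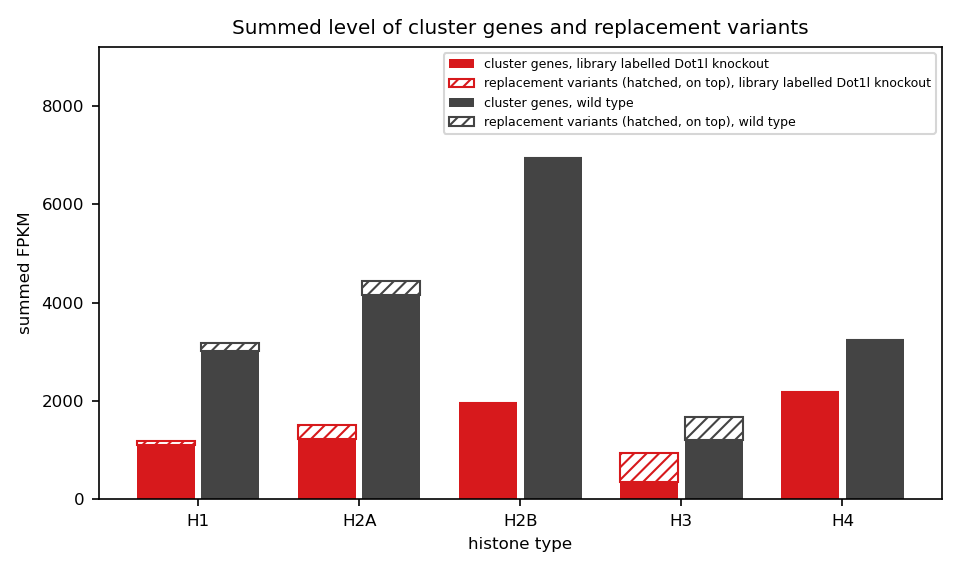
Summed FPKM per histone type in the library labelled Dot1l knockout (red, left bar of each pair) and in wild type (grey, right bar), with replacement variants of the type stacked on top and hatched. The cluster sums are lower in the library labelled knockout for each type, by the least for H4 (2189 FPKM in the library labelled knockout, 3232 in wild type), and the hatched part of H3 is larger than the cluster part in the library labelled knockout only.

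Linker histone H1 sits on the DNA between nucleosomes and helps to compact it. Its subtypes differ in sequence, so their reads are told apart well: each of the 6 genes encodes a protein of its own and had over 90% of its 50-base stretches in no gene at another place. In this and the next paragraphs the value in brackets after a pair of levels is the log2 difference. Hist1h1c, the gene of subtype H1.2 and the highest of the type in wild type, had 303 FPKM in the library labelled knockout and 1092 in wild type (-1.85). Hist1h1e (H1.4) had 128 FPKM in the library labelled knockout and 774 in wild type (-2.59), the largest H1 difference. Both of these widely expressed subtypes were lower in the library labelled knockout by more than 3-fold. The annotated span of Hist1h1e overlaps that of Hist1h2be on the same strand. Hist1h1d (H1.3) had 187 FPKM in the library labelled knockout and 451 in wild type (-1.27). For Hist1h1b (H1.5) the values were 117 FPKM in the library labelled knockout and 381 in wild type (-1.70). Hist1h1a (H1.1) stood apart from these, with 369 FPKM in the library labelled knockout and 308 in wild type (0.26), a difference that became -0.09 when each library was rescaled to the same sum. It was the highest H1 gene in the library labelled knockout and the fifth in wild type. The testis gene Hist1h1t was near the minimum, at 1.36 FPKM in the library labelled knockout and 1.70 in wild type (-0.19).

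Of the 18 H2A genes, which with H2B form the outer dimers of the nucleosome, 16 passed, and they held the largest differences of the set. Hist1h2ah had 17.2 FPKM in the library labelled knockout and 298 in wild type (-4.04), which is 17.3-fold lower. Hist1h2ai had 26.9 FPKM in the library labelled knockout and 329 in wild type (-3.57), 12.2-fold lower. Hist1h2ad had 31.6 FPKM in the library labelled knockout and 356 in wild type (-3.45), 11.3-fold lower. All 3 are genes of the Hist1 cluster that were high in wild type and low in the library labelled knockout. They are also among the least distinct in sequence: 9.27% of the 50-base stretches of Hist1h2ah, 9.88% of those of Hist1h2ai and 32.9% of those of Hist1h2ad occur in no gene at another place, so how the authors' counting shared reads among copies bears on each value. At protein level 9 H2A genes, Hist1h2ai and Hist1h2ad among them, encode 1 identical H2A. Summed over those 9, the level was 348 FPKM in the library labelled knockout and 2060 FPKM in wild type, a log2 ratio of -2.57. How reads were shared within the 9 bears on that sum through model length. The GENCODE models run from 393 bases (Hist1h2ai) to 2482 bases (Hist1h2ac), so the sum is not free of it. The 9 also share 50-base stretches with H2A genes outside them, such as Hist1h2ak and Hist2h2ac. How the authors' counting treated reads from those stretches bears on the sum too.

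The remaining H2A genes were lower by less, or not at all. Hist2h2ac, the highest H2A gene, had 338 FPKM in the library labelled knockout and 843 in wild type (-1.32). Hist1h2ab had 110 FPKM in the library labelled knockout and 590 in wild type (-2.41). Hist1h2ak had 93.3 FPKM in the library labelled knockout and 406 in wild type (-2.11). These 3 abundant genes were all lower by 2-fold or more. Hist1h2af lay within 2-fold as deposited (-1.13 with libraries rescaled to the same sum), at 156 FPKM in the library labelled knockout and 268 in wild type (-0.77). The other H2A gene within 2-fold was Hist3h2a, from the small cluster on chromosome 11, with 242 FPKM in the library labelled knockout and 181 in wild type (0.42). Its model has 98.0% of 50-base stretches of its own, runs 1643 bases past the stem-loop and overlaps Trim17. Hist1h2ac, whose model also runs on, for 2010 bases, had 76.3 FPKM in the library labelled knockout and 237 in wild type (-1.62). At the low end Hist2h2aa2 had 0.0004 FPKM in the library labelled knockout and 1.53 FPKM in wild type, and the germ cell gene Hist1h2aa stood at 0 FPKM in the library labelled knockout and at 1.27 FPKM in wild type. Both rest on few fragments.

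H2B was dominated by 1 gene in wild type. Hist2h2bb had 694 FPKM in the library labelled knockout and 4466 in wild type (-2.68), which is 6.44-fold lower. Of the H2B sum it made up 35.3% in the library labelled knockout and 64.3% in wild type, was the highest gene of the whole set in both, and none of its 50-base stretches occurs in a gene at another place. Its GENCODE model is only the coding part (381 bases). It overlaps Gm20628 and Gm42743, and overlapping genes were left out of the search for shared stretches. Without Hist2h2bb the log2 ratio of the H2B sum was -0.96 in place of -1.82. The next highest genes were within 2-fold. Hist1h2bb had 458 FPKM in the library labelled knockout and 665 in wild type (-0.54). Hist1h2bn had 162 FPKM in the library labelled knockout and 289 in wild type (-0.83), and came to -1.18 when each library was rescaled to the same sum. Hist1h2be had 182 FPKM in the library labelled knockout and 225 in wild type (-0.30). The largest H2B differences after Hist2h2bb were in genes of middle level. Hist1h2bk had 44.6 FPKM in the library labelled knockout and 210 in wild type (-2.21). For Hist1h2bh the values were 32.5 FPKM in the library labelled knockout and 110 in wild type (-1.73). Hist2h2be lay on the other side, with 3.79 FPKM in the library labelled knockout and 1.88 in wild type (0.73). With it at the low end were the pseudogene Hist3h2bb-ps, at 4.85 FPKM in the library labelled knockout and 5.21 in wild type (-0.09), and Hist3h2ba, at 4.52 FPKM in the library labelled knockout and 5.28 in wild type (-0.19).

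H3, which carries the lysine that Dot1l methylates, had the lowest sum of the types, and all 10 genes that passed were below 0. Hist1h3b, the highest, had 116 FPKM in the library labelled knockout and 433 in wild type (-1.90). Hist1h3e had 74.4 FPKM in the library labelled knockout and 154 in wild type (-1.04). Hist1h3d had 31.9 FPKM in the library labelled knockout and 160 in wild type (-2.29). The most abundant H3 genes were thus lower by 2-fold to 5-fold. Hist2h3b showed the largest H3 difference, with 7.94 FPKM in the library labelled knockout and 86.6 in wild type (-3.29), 10.9-fold lower, but 20.3% of its 50-base stretches are its own. Hist1h3a was the gene within 2-fold, at 15.2 FPKM in the library labelled knockout and 29.6 in wild type (-0.91), and it passed 2-fold under 3 of the 4 other scalings, at -1.28 with the same sum. The 12 genes encode 2 proteins. The 4 genes of H3.1 (Hist1h3a, Hist1h3g, Hist1h3h and Hist1h3i) summed to 51.3 FPKM in the library labelled knockout and 185 in wild type, a log2 ratio of -1.85. The 8 genes of H3.2 summed to 290 FPKM in the library labelled knockout and 1012 in wild type, a log2 ratio of -1.80. Both forms of H3 were thus lower by about the same ratio.

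H4 pairs with H3 at the centre of the nucleosome, and all 13 of its genes encode 1 identical protein of 103 residues. Hist1h4d had 528 FPKM in the library labelled knockout and 676 in wild type (-0.36). Hist1h4k had 329 FPKM in the library labelled knockout and 677 in wild type (-1.04). Of these most abundant H4 genes, 1 was thus lower by just over 2-fold. The 4 H4 genes above 0 were Hist1h4f, Hist1h4h, Hist1h4c and Hist1h4i. Hist1h4f had 426 FPKM in the library labelled knockout and 399 in wild type (0.09), and was below 0 with the same sum (-0.26), the same upper quartile (-0.04) or the sum without small RNAs (-0.06). Hist1h4h had 212 FPKM in the library labelled knockout and 192 in wild type (0.15), and was below 0 with the same sum (-0.20) or the sum without small RNAs (-0.0064). Hist1h4c had 273 FPKM in the library labelled knockout and 207 in wild type (0.39), and Hist1h4i was at a low level, at 24.6 FPKM in the library labelled knockout and 18.8 in wild type (0.37). All 4 lay within 2-fold. The opposite end was Hist1h4b, with 49.9 FPKM in the library labelled knockout and 427 in wild type (-3.07), 8.56-fold lower. Hist1h4a, its neighbour on chromosome 13, had 73.7 FPKM in the library labelled knockout and 216 in wild type (-1.54). Hist4h4, the single gene on chromosome 6, had 41.3 FPKM in the library labelled knockout and 93.4 in wild type (-1.16). H4 genes thus ran from 8.56-fold lower to slightly higher although their protein is the same. In the window of Hist1h4b none of the 3 motifs was found, but the same held for Hist1h4h (0.15) and Hist4h4 (-1.16). Of the 50-base stretches of Hist1h4b, 45.4% are its own.

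Genes at least 2-fold lower lay in the Hist1, Hist2 and Hist4 clusters and not in Hist3. The Hist1 cluster on chromosome 13 had 33 of 49 genes lower by 2-fold or more and a median of -1.55, and the Hist2 cluster on chromosome 3 had 5 of 7, with a median of -1.34. The Hist2 sum was 1197 FPKM in the library labelled knockout and 5699 FPKM in wild type, most of it Hist2h2bb. The 3 Hist3 genes on chromosome 11, the pseudogene Hist3h2bb-ps among them, all lay within 2-fold (summed 252 FPKM in the library labelled knockout, 192 in wild type). Within Hist1, 3 stretches set apart by gaps over 100000 bases had 10 of 14, 4 of 5 and 18 of 29 genes lower by 2-fold or more and medians of -1.69, -2.21 and -1.46. The last stretch held Hist1h2aa and Hist1h2ba only. H4 genes near 0 stood directly beside genes that were far lower: Hist1h4i (0.37) lies between Hist1h2bk (-2.21) and Hist1h2ag (-2.43), and Hist1h4c (0.39) lies beside Hist1h1c (-1.85).

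**Figure D3:**
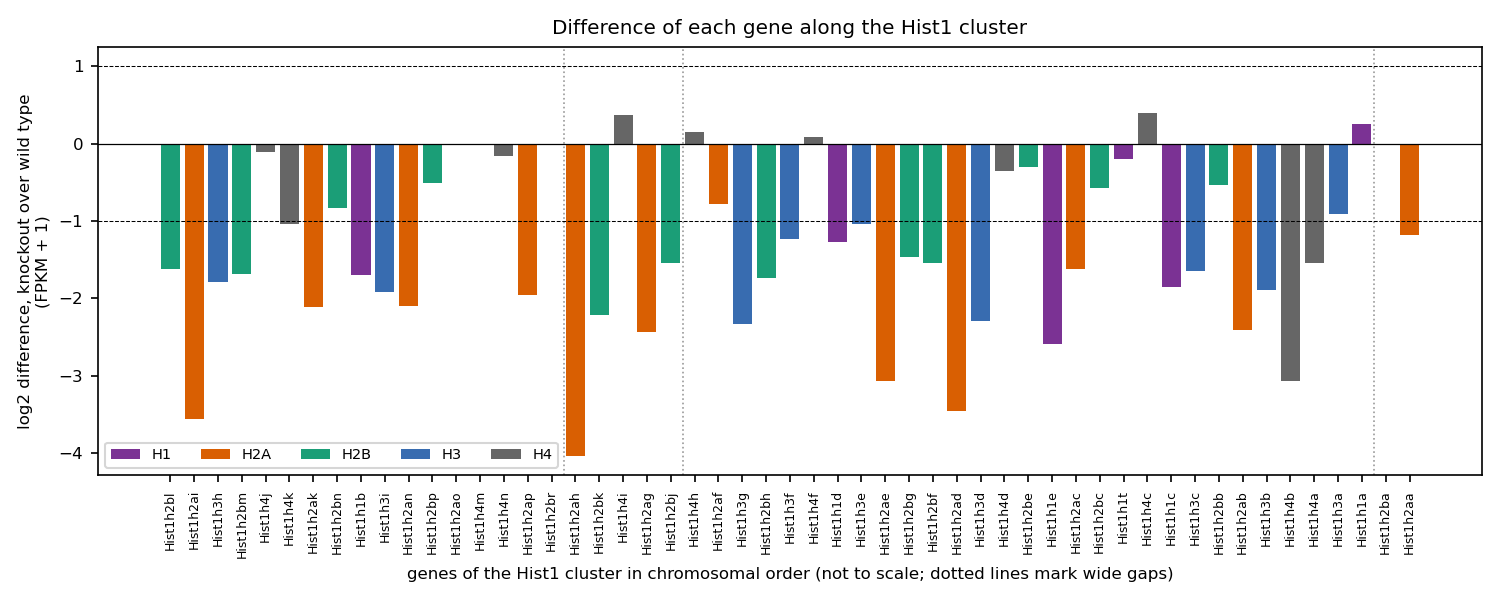
Log2 difference of (FPKM + 1), library labelled Dot1l knockout over wild type, for the genes of the Hist1 cluster in chromosomal order (not to scale), coloured by histone type, with dashed lines at 2-fold and dotted lines at gaps over 100000 bases. Genes under 1 FPKM in both libraries have no bar. Bars near 0, many of them H4, stand among long H2A and H3 bars along the cluster, while Hist1h4b reaches -3.07.

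Many H2A genes face away from an H2B gene across a short shared stretch of promoter, and 12 such pairs, 172 to 305 bases apart, were found in the annotation. Both genes passed in 10 of them. The H2A gene had the lower log2 difference in 9 of the 10, with a median of -1.60 for H2A minus H2B. Hist1h2ah and Hist1h2bk had log2 differences of -4.04 and -2.21. Those of Hist1h2ad and Hist1h2bf were -3.45 and -1.54, and those of Hist1h2ai and Hist1h2bl were -3.57 and -1.62. In Hist2h2ac and Hist2h2be the signs were opposite (-1.32 and 0.73), and the pair the other way round was Hist3h2a with Hist3h2bb-ps (0.42 and -0.09). The H2B side of that last pair is a processed pseudogene. Genes that share 1 stretch of promoter thus differed from each other by about as much as the group differed from all genes. All 18 H2A genes, and 2 of 18 H2B genes, overlap another annotated gene in GENCODE M21, mostly predicted ones. Of the 29 overlapping genes over the whole set, 3 are listed in the deposited files. Histone genes that overlap another were at least 2-fold lower in 18 of the 21 that passed (median -2.11). Those that overlap none were so in 21 of 39 (median -1.04). Overlap runs alongside type, since every H2A gene has it and Hist1h4b is the only H4 gene that does. The part of the overlap was not tested.

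**Figure D4:**
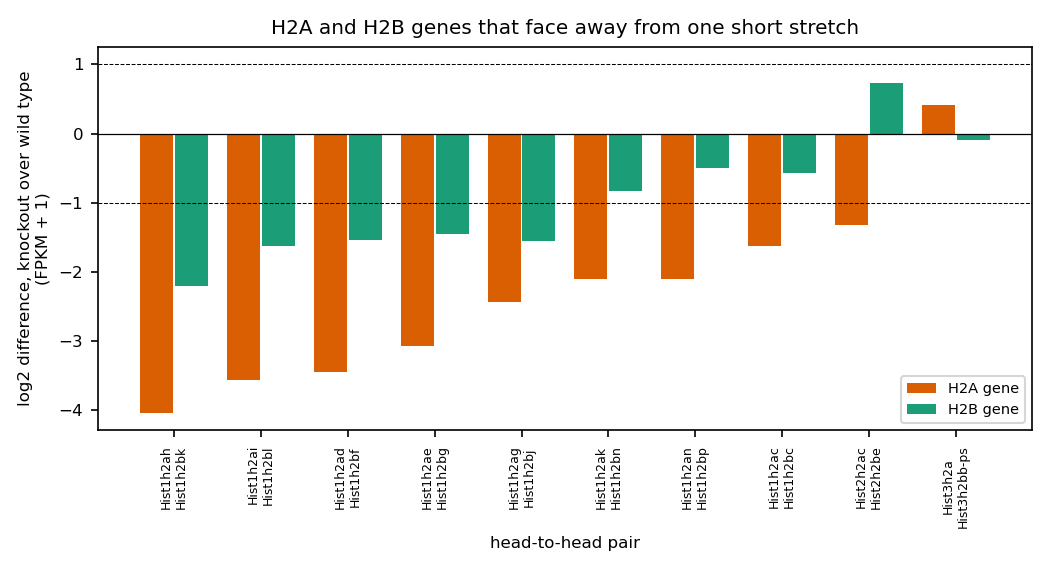
Log2 difference of (FPKM + 1), library labelled Dot1l knockout over wild type, for the H2A (orange) and H2B (green) gene of the 10 head-to-head pairs in which both passed 1 FPKM, with dashed lines at 2-fold. The orange bar reaches lower than the green one in 9 pairs, and Hist3h2a with the pseudogene Hist3h2bb-ps is the exception.

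Sequence that copies share moved with the size of the difference. Of the 35 genes that passed with at least 50% of their 50-base stretches in no gene at another place, 18 were lower by 2-fold or more and the median was -1.16. Of the 25 genes below 50%, 21 were, and the median was -1.91. Among the more distinct genes the types kept the order of H2A and H3 below H4: the medians were -1.48 for H1, -1.47 for H2A, -1.44 for H3, -0.55 for H2B and -0.11 for H4 (6, 6, 4, 10 and 9 genes). Summing genes of an identical protein left 6 H1, 9 H2A, 12 H2B (the frame of the pseudogene Hist3h2bb-ps among them), 2 H3 and 1 H4 sums before the minimum. Of these, 17 were at least 2-fold lower. Features of the transcript and promoter also lay unevenly over the set. Where the model runs at least 100 bases past the stem-loop, 12 of 21 genes were at least 2-fold lower (median -1.16), and where it ends sooner 14 of 20 were (median -1.60). Genes with CCAAT in the window were at least 2-fold lower in 34 of 45 cases (median -1.65) and genes without it in 3 of 8 (median -0.13), and all the windows without it belong to H4 genes. With or without the octamer, H2A and H2B genes had medians of -1.66 (12 genes) and -1.59 (16 genes).

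Other protein-coding genes with short models had a median on the other side of 0. Of 26 other protein-coding genes with a single model of 300 to 600 bases, 50% were higher in the library labelled knockout by 2-fold or more, 11.5% were lower by as much, and the median was 1.02. The 91 genes of 600 to 1000 bases had a median of 0.33, those of 1000 to 2000 bases 0.01, those of 2000 to 4000 bases -0.19 and longer ones -0.37. Histone cluster genes, most of whose models are short, had a median of -1.50. Their models run from 312 bases (Hist1h4k) to 7425 bases (Hist1h1d), and the part of length in their differences was not tested.

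Of the 7 replacement variants, 6 lay within 2-fold, 1 was further apart and lower, and 0 were further apart and higher. Summed they were 962 FPKM in the library labelled knockout and 927 FPKM in wild type. Their median log2 difference was -0.29 as deposited and -0.64 with the same sum, a scaling that moved the median of all genes to -0.35. H3f3b, a gene of H3.3, the form of H3 placed outside replication, had 412 FPKM in the library labelled knockout and 277 in wild type (0.57). H3f3a, the other gene of H3.3, had 191 FPKM in the library labelled knockout and 187 in wild type (0.03), and lay below 0 under each of the 4 other scalings, down to -0.32 with the same sum. H2afz (H2A.Z, found at promoters) had 166 FPKM in the library labelled knockout and 139 in wild type (0.25), or -0.10 with the same sum. H3f3b, H3f3a and H2afz were thus not lower as deposited. H2afx (H2A.X, phosphorylated at DNA breaks) had 35.5 FPKM in the library labelled knockout and 49.0 in wild type (-0.46). H2afy (macroH2A) had 60.1 FPKM in the library labelled knockout and 83.7 in wild type (-0.47). H2afv, another form of H2A.Z, had 18.3 FPKM in the library labelled knockout and 22.6 in wild type (-0.29). All these lay within 2-fold. H1f0, the H1.0 of resting and differentiated cells, was the 1 variant at least 2-fold lower, with 80.0 FPKM in the library labelled knockout and 168 in wild type (-1.06).

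Against lower cluster sums, the variants took a larger share of their type in the library labelled knockout. Each share is of the cluster genes plus the replacement variants of the type, and leaves out the other variants named below. H3f3a and H3f3b made up 63.8% of this H3 FPKM in the library labelled knockout and 27.9% in wild type. The 4 H2A variants made up 18.6% of H2A in the library labelled knockout and 6.63% in wild type. H1f0 made up 6.76% of H1 in the library labelled knockout and 5.30% in wild type. Of the other variants, the 4 that passed lay within 2-fold on the scale log2(FPKM + 1), although the ratios of FPKM of H1fx and H2afj were past it, at 2.21-fold lower and 2.00-fold higher. H2afj had 19.2 FPKM in the library labelled knockout and 9.56 in wild type (0.93). Cenpa, the H3 of centromeres, had 32.3 FPKM in the library labelled knockout and 30.0 in wild type (0.10). Lower in level were H1fx, at 1.35 FPKM in the library labelled knockout and 2.98 in wild type (-0.76), and H2afy2, at 11.1 FPKM in the library labelled knockout and 20.1 in wild type (-0.80). Of the 6 germ cell variants listed, only Hist1h1t and Hist1h2aa passed.

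Genes that make and handle histone mRNA mostly lay within 2-fold. Of 17 factors of histone transcription and 3′ end processing, 1 was at least 2-fold higher, 0 were at least 2-fold lower, and the median was 0.30. Over all genes that passed, these shares were 16.78% higher and 15.49% lower. Slbp, the stem-loop binding protein, had 78.1 FPKM in the library labelled knockout and 60.9 in wild type (0.36). Npat, the co-activator of histone genes, had 6.53 FPKM in the library labelled knockout and 14.0 in wild type (-0.99), at the edge of 2-fold, and lay past it under each of the 4 other scalings (-1.38 to -1.02). Its partner in the histone gene bodies, Casp8ap2, had 24.5 FPKM in the library labelled knockout and 34.8 in wild type (-0.49). Npat thus had the lowest difference of the 17 factors. Of the U7 proteins, Lsm10 had 10.01 FPKM in the library labelled knockout and 6.70 in wild type (0.52). The other, Lsm11, had 1.67 FPKM in the library labelled knockout and 2.21 in wild type (-0.27). The gene at least 2-fold higher was Mif4gd, which joins SLBP to translation, at 17.1 FPKM in the library labelled knockout and 5.84 in wild type (1.40). Pou2f1, the gene of OCT1, was within 2-fold, at 6.23 FPKM in the library labelled knockout and 4.76 in wild type (0.33).

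Histone chaperones, which carry histones to DNA, had 1 of 22 genes at least 2-fold lower, 0 that far higher and a median of 0.04. For this list and those below, the shares over all genes that passed were 15.49% lower and 16.78% higher. The lower gene was Chaf1b, a subunit of the assembly factor CAF-1, with 7.70 FPKM in the library labelled knockout and 17.9 in wild type (-1.12). Its partner Chaf1a had 21.8 FPKM in the library labelled knockout and 17.9 in wild type (0.27). Asf1b had 10.2 FPKM in the library labelled knockout and 9.89 in wild type (0.04). Nasp, which holds the soluble pool of H3 and H4, had 158 FPKM in the library labelled knockout and 164 in wild type (-0.05). Only the 1 subunit was thus apart by 2-fold. Of 34 DNA replication genes, whose products act in the phase in which histone mRNA is made, 1 was at least 2-fold higher, 0 were that far lower, and the median was 0.00. This was Pcna, the sliding clamp, with 215 FPKM in the library labelled knockout and 97.7 in wild type (1.13), which came within 2-fold under 3 of the 4 other scalings. The median of 16 mitosis genes was -0.18, with 13 below 0 and 3 above, and all lay within 2-fold. Their differences ran from -0.91 to 0.49. Near the low end was Mki67, a marker of dividing cells, with 141 FPKM in the library labelled knockout and 250 in wild type (-0.82). With the same sum the median was -0.35 for the replication genes and -0.53 for the mitosis genes, beside -1.90 for the histone cluster genes and -0.35 for all genes.

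**Figure D5:**
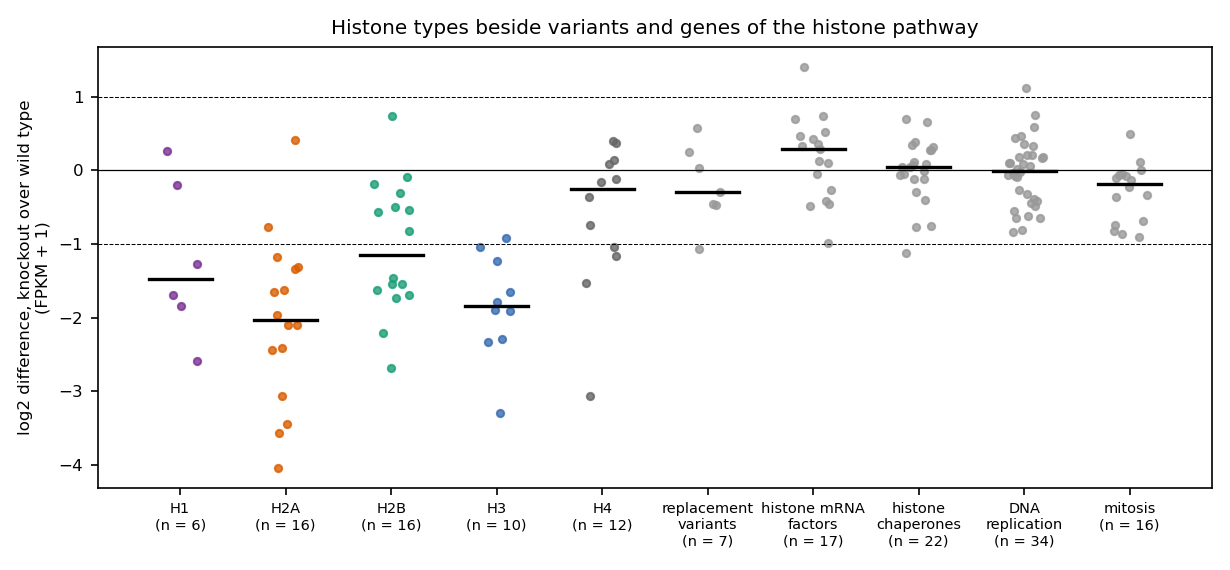
Log2 difference of (FPKM + 1), library labelled Dot1l knockout over wild type, for each gene that passed 1 FPKM, by histone type and for the replacement variants and 4 lists of the histone pathway, with black bars at the medians and dashed lines at 2-fold. The medians of H1, H2A, H2B and H3 lie between -1.14 and -2.03, and those of H4 and the other 5 groups lie between -0.29 and 0.30.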

How the data were processed

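The 2 libraries, 1 per genotype, were compared. The values are FPKM as deposited by the authors. STAR 2.5.2b, Cufflinks 2.2.1, Cuffnorm, R 3.3.2 and the build mm9 are named per the submitters' processing notes, and libraries were made with the ScriptSeq v2 kit from RNA of integrity above 7.0, per the labels' protocols. The sources used here do not say how reads shared by copies or by overlapping genes were counted, or whether strand was used. Differences are log2((knockout FPKM + 1)/(wild type FPKM + 1)) over genes with at least 1 FPKM in either library, and a gene is counted from 2-fold. Folds of single genes and of sums are ratios of the deposited FPKM. With 1 library per genotype no SD exists and the errors are unknown. Depth was estimated from genes with a single transcript of at least 2500 bases and up to 5 fragments, with a fragment length of 200 bases assumed: 74.3% of 148 values of the library labelled knockout and 80.3% of 132 of wild type lay within 0.1 of a whole number. The step was tested on simulated data. Features come from GENCODE M21 and RefSeq promoters (GRCm38), matched by symbol or synonym, and coordinates other than those of printed promoters are left out since the files' build is mm9. Stretches of 50 bases in no gene at another place give the share of unique sequence. Python 3.11.15, pandas 2.3.3, numpy 2.4.6, Biopython 1.88 and matplotlib 3.10.9 were used. Genes named are Dot1l, the 7 replacement variants, per type the 4 highest by mean FPKM and the 3 highest and 3 lowest by difference, and pathway genes at least 2-fold apart plus Slbp, Npat, Lsm11, Casp8ap2, Asf1b, Chaf1a and Pcna. Other genes are named after seeing their values. Members and lists were chosen with earlier results of these data known.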

Additional observations from a re-analysis of the deposited data

How the results depend on the processing

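The cluster genes lay lower as a group under every pseudocount, scaling and minimum tried, with 27 to 43 of them called lower. A 3-fold threshold gave 27, where 6.81% of all genes passed downward. A 1.5-fold threshold gave 43, where 25.9% passed, and the same sum gave 43. Of the fewer sums left once genes of an identical protein were summed (6 H1, 9 H2A, 12 H2B, 2 H3 and 1 H4), 17 were lower. Among the 35 genes that passed with at least 50% unique 50-base stretches, a choice made after seeing the data, 18 were lower. The medians were -1.90 to -1.16. One gene was at least as far higher with a 1.5-fold threshold, and 1 when libraries were rescaled to the same sum leaving out small RNAs. Rescaling to a sum of 1000000 moved the median of all genes to -0.35 and their split to 14.2% higher and 25.2% lower; the upper quartile moved it to -0.12 and the sum without small RNAs to -0.16. Leaving out Hist2h2bb took the H2B log2 ratio to -0.96, and leaving out Hist1h1c took the H1f0 share in wild type to 8.07%. Medians of lists moved as follows, beside the shift of all genes. With the same sum, DNA replication genes came to -0.35, mitosis genes to -0.53 and replacement variants to -0.64. Histone mRNA factors came to -0.035 with the same sum, and chaperones to -0.29 with the same sum, -0.075 with the upper quartile and -0.10 with the sum without small RNAs. Other variants came to 0.088 with no minimum and 0.10 with a minimum of 10 FPKM. The 2 germ cell variants that passed had -0.69, which became -2.04 with a pseudocount of 0.1, -1.27 with the same sum, -1.21 without small RNAs and 0 with no minimum. In these cases the cause was not tested. For 57 single genes under 6 settings, 311 of 342 values kept side and direction or stayed close, 6 came within 2-fold, 10 passed it and 15 crossed 0 or moved. No paired analysis was possible because there is a single library per genotype, so none could be left out either. The histone cluster genes under 1 FPKM in both libraries are not resolved at this depth.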
